A study of Homo sapiens with 18 samples.

Results

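The libraries labelled SRSF2-OE were set against those labelled SRSF6-OE, both made from MCF-10A, a human breast epithelial line that is immortal but does not form tumours. The members were the 3 samples titled SRSF2-OE and the 3 titled SRSF6-OE, 6 of the 18 samples in the series, and the comparison was described across all genes. In both groups the cells stably carried a retroviral construct with a coding sequence, that of SRSF2 in SRSF2-OE and that of SRSF6 in SRSF6-OE, and had grown for 8 days in Matrigel, a basement membrane gel in which these cells form rounded acinar structures. The remaining samples carried SRSF4, SRSF9, TRA2B or the empty vector pWZL. SRSF6-OE replicates 1 and 2 were 2 sequencing lanes of 1 library by their labels and were summed, so that SRSF2-OE had 3 libraries and SRSF6-OE had 2, or 5 of the 14 libraries in the series. RNA was taken from whole structures, so a change in the share of a cell state and a change of RNA per cell cannot be told apart.

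SR proteins bind exonic sequences in pre-mRNA through RNA recognition motifs and recruit spliceosome components through a domain rich in arginine and serine. SRSF2 and SRSF6 recognise different sequences, and both are known to regulate their own transcripts by coupling alternative splicing to nonsense-mediated decay, the pathway that removes mRNAs with premature stop codons. Overexpression of single SR proteins in mammary epithelial cells has been used to ask whether they differ in what they do to growth and to acinar structure.

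The 5 libraries held 44064768 to 105910432 counts. The model of all 14 libraries had a term for group and a term for label set, which parts libraries with a library ID in their description from those with a number alone. All 3 SRSF2-OE libraries and SRSF6-OE replicate 3 carried numbers, and the summed SRSF6-OE library carried an ID, so the fitted fold changes lean on SRSF6-OE replicate 3 and can differ from a ratio of mean levels. Without that replicate, the contrast is reached only through the label set term, which other groups with both kinds of label then set. Fold changes and medians given below without replicate 3 can therefore differ in size and sign from the step between the levels. They do not measure how far a difference came from that replicate. Replicates did not all group by factor. By Pearson correlation of log2 levels across genes, SRSF2-OE replicate 1 was closest to TRA2B-OE replicate 3 (r = 0.985), the nearest to SRSF2-OE replicate 2 was SRSF9-OE replicate 3 (r = 0.975), the summed SRSF6-OE library was nearest to the summed SRSF4-OE library (r = 0.987), while SRSF2-OE replicate 3 was closest to SRSF2-OE replicate 1 (r = 0.974). SRSF6-OE replicate 3 was nearest to SRSF9-OE replicate 2 (r = 0.967). The 2 SRSF6-OE libraries correlated at r = 0.956, within the range of 0.919 to 0.957 seen between the groups. No label says that replicates were grown apart, so a p-value here reflects only how these libraries vary, and that variation may be technical. Levels below are in CPM, counts scaled to a common normalised library size, and fold changes are log2 values of SRSF2-OE over SRSF6-OE with their standard error.

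The introduced factors were examined first. SRSF2 stood at 214, 396 and 310 CPM in SRSF2-OE replicates 1, 2 and 3, against 266 and 212 CPM in SRSF6-OE replicates 1-2 and 3. SRSF2-OE replicates 2 and 3 lay above both SRSF6-OE libraries, while replicate 1 lay between them, so the groups overlapped. The log2 fold change was 0.48 ± 0.24 (edgeR, adjusted p = 0.335), and without SRSF2-OE replicate 1 it was 0.68 (edgeR, adjusted p = 0.220). SRSF6 stood at 307, 297 and 412 CPM in SRSF2-OE, against 417 and 283 CPM in SRSF6-OE. The groups overlapped, and the SRSF6 level did not set apart the libraries labelled SRSF6-OE, with a log2 fold change of 0.22 ± 0.22 (edgeR, adjusted p = 0.600). That estimate was negative, -0.049, without the label set term and -0.062 in a fit of the 5 libraries alone. The counts do not tell an introduced coding sequence from the gene in the genome.

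**Figure D1:**
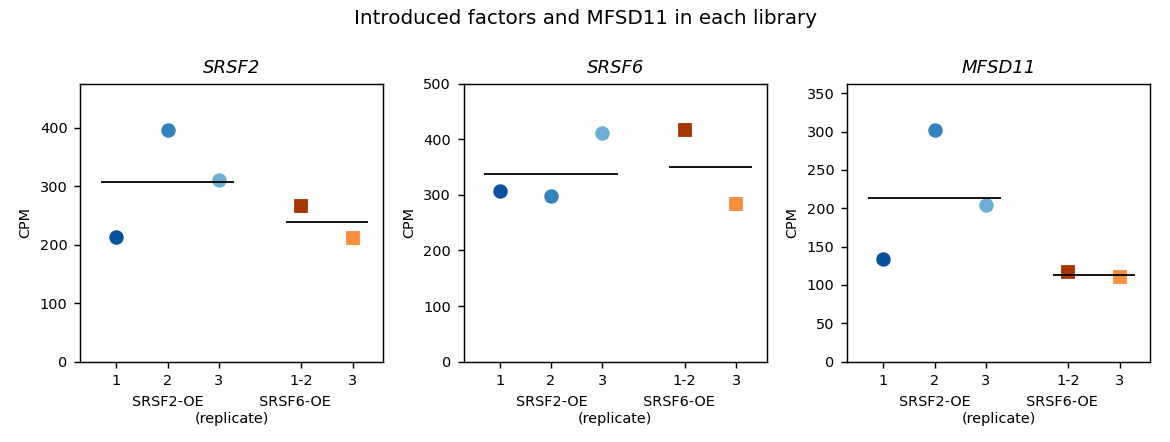
Level of SRSF2, SRSF6 and MFSD11 in CPM (vertical axis) in each of the 3 SRSF2-OE libraries (circles) and the 2 SRSF6-OE libraries (squares), with the mean of each group as a line. SRSF2 was 396 CPM in SRSF2-OE replicate 2 and 214 CPM in replicate 1, and neither introduced factor separated the groups.

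MFSD11, a gene on the opposite strand that overlaps SRSF2 in GENCODE 29, ran alongside SRSF2 in SRSF2-OE, with 133, 302 and 204 CPM against 117 and 110 CPM in SRSF6-OE. All SRSF2-OE libraries lay above both SRSF6-OE libraries. The log2 fold change was 0.91 ± 0.30 (edgeR, adjusted p = 0.198). In the 7 libraries of SRSF4-OE, SRSF9-OE and TRA2B-OE it was 105 to 132 CPM, so the 2 SRSF2-OE libraries with the highest SRSF2 also had the highest MFSD11. No source used here says whether the counts used strand, so reads of these neighbours cannot be told apart; MFSD11 was named after its values were seen.

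Across 21326 genes tested, edgeR's quasi-likelihood test called 0 genes higher in SRSF2-OE (0.0% of genes tested) and 5 lower (0.0234%) at a Benjamini-Hochberg adjusted p under 0.05. At an unadjusted p under 0.05 it had 1714 higher (8.04%) and 1977 lower (9.27%). DESeq2 on the same design called 309 higher (1.45%) and 556 lower (2.61%), and all 5 edgeR calls were among them. Of the 865 DESeq2 calls (4.06%), 244 higher and 512 lower genes also had every SRSF2-OE library on 1 side of both SRSF6-OE libraries, an arrangement that 15.3% of all genes tested showed in each direction and 30.5% in either. The number of DESeq2 calls depended on single libraries: without SRSF2-OE replicate 1, 2 and 3 there were 559, 2453 and 271. It fell most without SRSF6-OE replicate 3. That fit leaves 1 SRSF6-OE library and reaches the contrast only through the label set term. The fall therefore does not measure how far the differences came from replicate 3. Genes below passed in DESeq2 alone unless edgeR is named.

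The 5 genes called by edgeR were all close to absent or low in SRSF2-OE. STARD13-AS, an antisense RNA at the STARD13 locus on chromosome 13, had 0.141, 0.107 and 0.247 CPM in SRSF2-OE, against 48.8 and 280.0 CPM in SRSF6-OE. The groups were far apart, and the 7 libraries of SRSF4-OE, SRSF9-OE and TRA2B-OE held 0.104 to 0.467 CPM, like SRSF2-OE. The log2 fold change was -10.04 ± 0.84 (edgeR, adjusted p = 0.00516). STARD13 itself, on the opposite strand, had 19.96, 14.1 and 35.3 CPM in SRSF2-OE and 22.8 and 19.1 CPM in SRSF6-OE, with overlapping groups (edgeR, adjusted p = 0.631).

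FRAS1, an extracellular matrix protein of the epithelial basement membrane, had 6.49, 3.09 and 3.35 CPM in SRSF2-OE, against 18.8 and 34.5 CPM in SRSF6-OE. Every SRSF2-OE library was below both SRSF6-OE libraries, with a log2 fold change of -2.95 ± 0.37 (edgeR, adjusted p = 0.0431). The SRSF4-OE, SRSF9-OE and TRA2B-OE libraries held 3.28 to 9.25 CPM, so here too it was the SRSF6-OE libraries that stood out. ADARB2, a brain-enriched relative of the RNA-editing deaminases that has no shown editing activity, had 0.161, 0.107 and 0.045 CPM in SRSF2-OE, against 1.64 and 3.29 CPM in SRSF6-OE (edgeR, adjusted p = 0.0144). It ran from 0.0913 to 1.97 CPM in the SRSF4-OE, SRSF9-OE and TRA2B-OE libraries, a range that takes in the summed SRSF6-OE library. SLCO1B3, a liver-type organic anion transporter, had 0.0402, 0.107 and 0.045 CPM in SRSF2-OE, against 2.01 and 5.597 CPM in SRSF6-OE (edgeR, adjusted p = 0.0431). The SRSF4-OE, SRSF9-OE and TRA2B-OE libraries held 0.0197 to 0.338 CPM of it. Whether it would have met the filter on low counts without SRSF6-OE, where it is high, was not tested. Both genes were scarcely transcribed in SRSF2-OE, and their groups did not overlap. AC105460.1, a gene with a clone name, had 0.0201 CPM in 1 SRSF2-OE library and 0 in the rest, against 0.896 and 21.5 CPM in SRSF6-OE (edgeR, adjusted p = 0.0431). It reached at most 0.0796 CPM in the SRSF4-OE, SRSF9-OE and TRA2B-OE libraries. Among the overexpression groups it thus met the filter on low counts through SRSF6-OE, where it is high, so its call is no separate support. ADARB2, SLCO1B3 and AC105460.1 fell outside the rule for named genes and were named after their values were seen.

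The promoter windows of 4 genes that were lower in SRSF2-OE are shown because the text turns on them: STARD13-AS and FRAS1 were called by edgeR, and BIRC3 and CLDN1 stand for the inflammatory and junction lists. Other genes had larger fold changes. Each is the RefSeq window from 250 bases before to 50 bases after the gene's start on GRCh38.p14, 5′ to 3′, with any match of the κB motif (GGG, any 2 bases, TT, any base, CC), the AP-1 motif TGANTCA or the TATA motif TATAAA on either strand in capitals.
STARD13-AS, chr13:33277304-33277603, plus strand: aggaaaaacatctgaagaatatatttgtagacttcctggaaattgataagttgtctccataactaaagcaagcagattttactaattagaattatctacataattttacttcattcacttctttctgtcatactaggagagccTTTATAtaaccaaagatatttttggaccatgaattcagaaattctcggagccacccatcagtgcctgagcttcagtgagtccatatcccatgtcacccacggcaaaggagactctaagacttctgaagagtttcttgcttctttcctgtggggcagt
FRAS1, chr4:78057073-78057372, plus strand: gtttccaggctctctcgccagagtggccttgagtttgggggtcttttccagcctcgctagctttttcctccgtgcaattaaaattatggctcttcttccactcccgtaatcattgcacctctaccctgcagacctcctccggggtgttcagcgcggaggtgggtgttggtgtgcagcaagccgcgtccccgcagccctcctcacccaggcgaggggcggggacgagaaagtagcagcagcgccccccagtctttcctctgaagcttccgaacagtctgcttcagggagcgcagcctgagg
BIRC3, chr11:102317234-102317533, plus strand: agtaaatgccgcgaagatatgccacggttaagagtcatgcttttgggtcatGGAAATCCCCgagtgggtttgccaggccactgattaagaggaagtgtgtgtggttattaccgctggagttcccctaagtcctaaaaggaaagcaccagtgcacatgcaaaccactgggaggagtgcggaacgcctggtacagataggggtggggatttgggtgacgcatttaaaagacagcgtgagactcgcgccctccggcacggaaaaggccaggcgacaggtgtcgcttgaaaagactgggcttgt
CLDN1, chr3:190322397-190322696, minus strand: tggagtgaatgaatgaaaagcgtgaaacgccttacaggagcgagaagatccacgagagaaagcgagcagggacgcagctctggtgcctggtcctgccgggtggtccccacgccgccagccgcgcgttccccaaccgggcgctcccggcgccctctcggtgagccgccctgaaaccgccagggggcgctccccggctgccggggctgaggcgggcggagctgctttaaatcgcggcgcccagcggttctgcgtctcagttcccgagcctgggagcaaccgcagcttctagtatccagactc
The BIRC3 window held 1 κB match, which 5.68% of the 35116 windows of this length in the table hold. The STARD13-AS window held 1 TATA match, on the opposite strand, and 11.5% of all windows hold one. None of the 4 windows held the AP-1 motif, found in 7.71% of all windows, and the FRAS1 and CLDN1 windows held none of the 3 motifs. The matches in these windows did not overlap, and they describe letters, not bound sites.

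The genes lower in SRSF2-OE were gathered on 4 chromosomes. Of the 556 genes DESeq2 called lower, 332 (59.7%) lie on chromosomes 7, 8, 11 and 13, which hold 3236 (15.2%) of the genes tested, whereas 25 of the 309 called higher (8.09%) lie there. The pattern was noticed after the results were seen, the 4 chromosomes were picked by it, and it was given no test. It was measured in each library over 10074 protein-coding genes with a mean of at least 5 CPM, as the median over a chromosome's genes of the log2 level minus the gene's mean in the 7 SRSF4-OE, SRSF9-OE and TRA2B-OE libraries, centred on the median of the library.

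On chromosome 13 this deviation was -0.11, -0.17 and -0.10 in SRSF2-OE, against 0.33 and 0.51 in SRSF6-OE, over 187 genes. On chromosome 8 it was -0.06, -0.11 and -0.08 in SRSF2-OE, against 0.24 and 0.37 in SRSF6-OE (346 genes). On chromosome 7 it was -0.01, -0.01 and 0.01 in SRSF2-OE, against 0.24 and 0.40 in SRSF6-OE (450 genes). In the SRSF4-OE, SRSF9-OE and TRA2B-OE libraries the values ran from -0.08 to 0.11 on chromosome 13, from -0.05 to 0.06 on chromosome 8 and from -0.01 to 0.02 on chromosome 7. Both SRSF6-OE libraries lay above all of these on the 3 chromosomes, and on chromosomes 8 and 13 all SRSF2-OE libraries lay below all of them. On chromosome 11 it was 0.08, 0.08 and 0.05 in SRSF2-OE, against 0.25 and 0.38 in SRSF6-OE (586 genes), and the other 7 libraries ran from -0.04 to 0.07. SRSF6-OE replicate 3 was the higher of the 2 SRSF6-OE libraries on each of the 4.

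The fitted fold changes followed. Their median was -0.60 for chromosome 13, -0.46 for chromosome 8, -0.40 for chromosome 7 and -0.35 for chromosome 11, against -0.02 over the 8505 genes of the other chromosomes together. On chromosome 13, 92.0% of genes had a negative fold change and in 67.4% every SRSF2-OE library was below both SRSF6-OE libraries, against 20.6% of all genes in this set. The same arrangement held for 50.6% of genes on chromosome 8, 42.0% on chromosome 7 and 35.8% on chromosome 11. Among the other chromosomes the medians ran between -0.17 on chromosome 4 and 0.17 on chromosome 22. Chromosomes 16, 22 and 17 went the other way, with 35.7%, 29.8% and 24.3% of their genes higher in SRSF2-OE without overlap, against 14.7% of all genes in this set. The deviation on chromosome 16 was 0.16, 0.12 and 0.12 in SRSF2-OE, against -0.09 and -0.17 in SRSF6-OE. On chromosome 22 it was 0.15, 0.19 and 0.10 in SRSF2-OE, against -0.09 and -0.16 in SRSF6-OE.

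**Figure D2:**
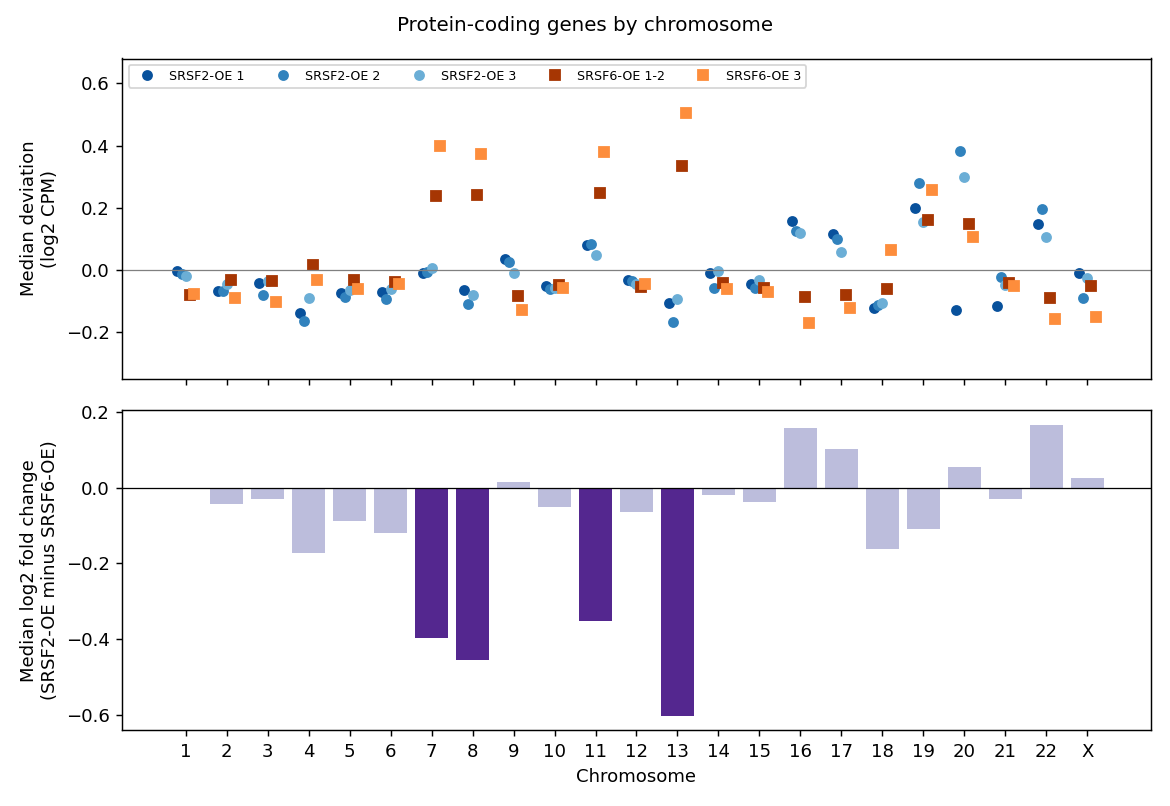
Upper panel, median deviation of protein-coding genes (log2 CPM, vertical axis) by chromosome (horizontal axis) in the 3 SRSF2-OE libraries (circles) and the 2 SRSF6-OE libraries (squares); lower panel, median log2 fold change of SRSF2-OE over SRSF6-OE, with chromosomes 7, 8, 11 and 13 in dark. Both SRSF6-OE libraries sit above all SRSF2-OE libraries on these 4, by most on chromosome 13, and on chromosome 20 SRSF2-OE replicate 1 sits apart from replicates 2 and 3.

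The shift ran along these chromosomes and was not made by a few genes. In blocks of 30 to 32 neighbouring genes, both SRSF6-OE libraries exceeded all SRSF2-OE libraries in 6 of 6 blocks of chromosome 13, 10 of 11 of chromosome 8, 13 of 15 of chromosome 7 and 12 of 19 of chromosome 11. On chromosome 13 the blocks ranged from -0.25 to -0.04 in SRSF2-OE, from 0.27 to 0.40 in the summed SRSF6-OE library and from 0.43 to 0.59 in SRSF6-OE replicate 3. Chromosome 11 was uneven, with blocks that ranged from -0.32 to 0.38 in SRSF2-OE and from 0.12 to 0.38 in the summed SRSF6-OE library. Genes on these 4 chromosomes that DESeq2 called lower had a median log2 fold change of -0.89, a smaller step than the -1.41 of those called lower elsewhere. What lies behind the shift was not tested.

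**Figure D3:**
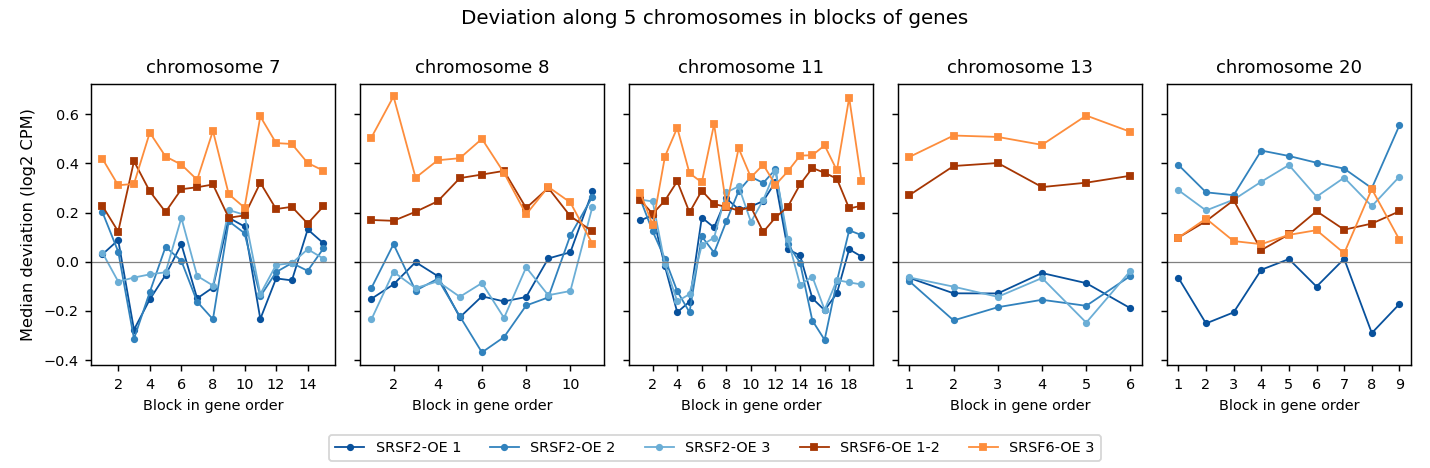
Median deviation (log2 CPM, vertical axis) of successive blocks of about 30 protein-coding genes in gene order (horizontal axis) along chromosomes 7, 8, 11, 13 and 20, 1 line per library. Both SRSF6-OE lines (squares) run above the SRSF2-OE lines (circles) along all 6 blocks of chromosome 13, and on chromosome 20 SRSF2-OE replicate 1 runs below replicates 2 and 3 throughout.

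Chromosome 20, which carries SRSF6, divided the SRSF2-OE libraries instead. Its deviation over 294 genes was -0.13 in SRSF2-OE replicate 1 but 0.38 and 0.30 in replicates 2 and 3, against 0.15 and 0.10 in SRSF6-OE. The SRSF4-OE, SRSF9-OE and TRA2B-OE libraries spread from -0.31 to 0.28. The median log2 fold change there was 0.05. When genes of chromosomes 7, 8, 11 and 13 were removed before normalisation, edgeR called 0 higher and 4 lower, and DESeq2 called 161 higher and 204 lower. Of the 63 genes described by rule besides the factors, 14 of 40 lower ones and 5 of 23 higher ones lie on these 4 chromosomes, and their chromosome is given beside them.

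Among genes of inflammatory signalling 3 were lower in SRSF2-OE by DESeq2. NF-κB is a family of transcription factors that drives cytokine and survival genes. Of 26 tested members of a list of NF-κB and cytokine genes, 22 had a negative fold change, with a median of -0.65 against 0.06 over all genes tested, of which 54.5% were positive. The median was -0.28 without SRSF6-OE replicate 3, a value reached only through the label set term, and -1.28 without SRSF2-OE replicate 2. By mean log2 level over the list, with 0.5 CPM added, SRSF2-OE had 3.21, 3.94 and 3.13. The summed SRSF6-OE library had 4.72 and SRSF6-OE replicate 3 had 4.41, so both lay above SRSF2-OE. In 13 members (50%) every SRSF2-OE library was below both SRSF6-OE libraries, where 15.3% of all genes were, and in 1, CXCL14, every one was above. DESeq2 called 3, BIRC3, IL32 and IL24, lower and 0 higher, against 2.61% and 1.45% of all genes tested. By edgeR 0 passed, with 6 lower and 0 higher at an unadjusted p under 0.05, against 9.27% and 8.04% of all genes. Of the 13, 1 lies on chromosome 7, 8, 11 or 13. BIRC3, an inhibitor of apoptosis that is itself an NF-κB target, had 136, 115 and 103 CPM in SRSF2-OE, against 708 and 522 CPM in SRSF6-OE. Those groups lay far apart, and the log2 fold change of -1.92 ± 0.31 (DESeq2, adjusted p = 1.66e-06) was well beyond the -0.35 median of its chromosome, 11. The SRSF4-OE, SRSF9-OE and TRA2B-OE libraries ran from 88.1 to 354 CPM, so SRSF6-OE was above all of them.

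IL32, a cytokine, had 2.19, 2.84 and 1.78 CPM in SRSF2-OE, against 21.4 and 11.9 CPM in SRSF6-OE (DESeq2 log2 fold change -2.28 ± 0.58, adjusted p = 0.00622). IL24, a cytokine of the IL-10 family, had 0.623, 0.576 and 0.562 CPM in SRSF2-OE, against 1.51 and 27.9 CPM in SRSF6-OE (DESeq2 log2 fold change -4.69 ± 1.29, adjusted p = 0.0145). IL32 was high in both SRSF6-OE libraries, while for IL24 the size of the difference came from replicate 3. The neutrophil attractants CXCL1 and CXCL2 did not pass a test but did not overlap: CXCL1 had 2.71, 13.5 and 5.44 CPM in SRSF2-OE, against 99.0 and 25.03 CPM in SRSF6-OE. CXCL5, another, had no count in SRSF2-OE and 2.01 and 0.172 CPM in SRSF6-OE. With 3 counts per library as the floor (0.061 CPM), the SRSF6-OE mean of 1.09 CPM gave a bound of 18-fold. That bound rests on the summed SRSF6-OE library, since replicate 3 lay much closer to the floor. The list median stayed at -0.65 with CXCL5 at that bound. TNFAIP3, an inhibitor of NF-κB, and NFKB2 and RELB, subunits of it, also lay lower without overlap and did not pass: TNFAIP3 had 45.8, 145 and 56.2 CPM in SRSF2-OE, against 199.8 and 179.5 CPM in SRSF6-OE. NFKBIA, another inhibitor, overlapped, with 191, 213 and 151 CPM in SRSF2-OE and 196 and 183 CPM in SRSF6-OE.

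Further genes of inflammatory signalling were among the 14 named genes that were lowest. TNFSF15, a TNF-family cytokine, had 1.71, 0.811 and 0.607 CPM in SRSF2-OE, against 10.8 and 36.0 CPM in SRSF6-OE (DESeq2 log2 fold change -4.78 ± 0.83, adjusted p = 8.40e-06). IL1R2, the decoy receptor that binds IL-1 without signalling, had 1.19, 2.05 and 1.91 CPM in SRSF2-OE, against 53.7 and 71.5 CPM in SRSF6-OE (DESeq2 log2 fold change -4.84 ± 1.18, adjusted p = 0.00432). Both SRSF6-OE libraries were high for both genes. PTGS2, the inducible cyclooxygenase that makes prostaglandins, had 1.19, 5.29 and 1.30 CPM in SRSF2-OE, against 5.30 and 62.5 CPM in SRSF6-OE, so the summed SRSF6-OE library was level with SRSF2-OE replicate 2 (DESeq2, adjusted p = 0.0288).

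**Figure D4:**
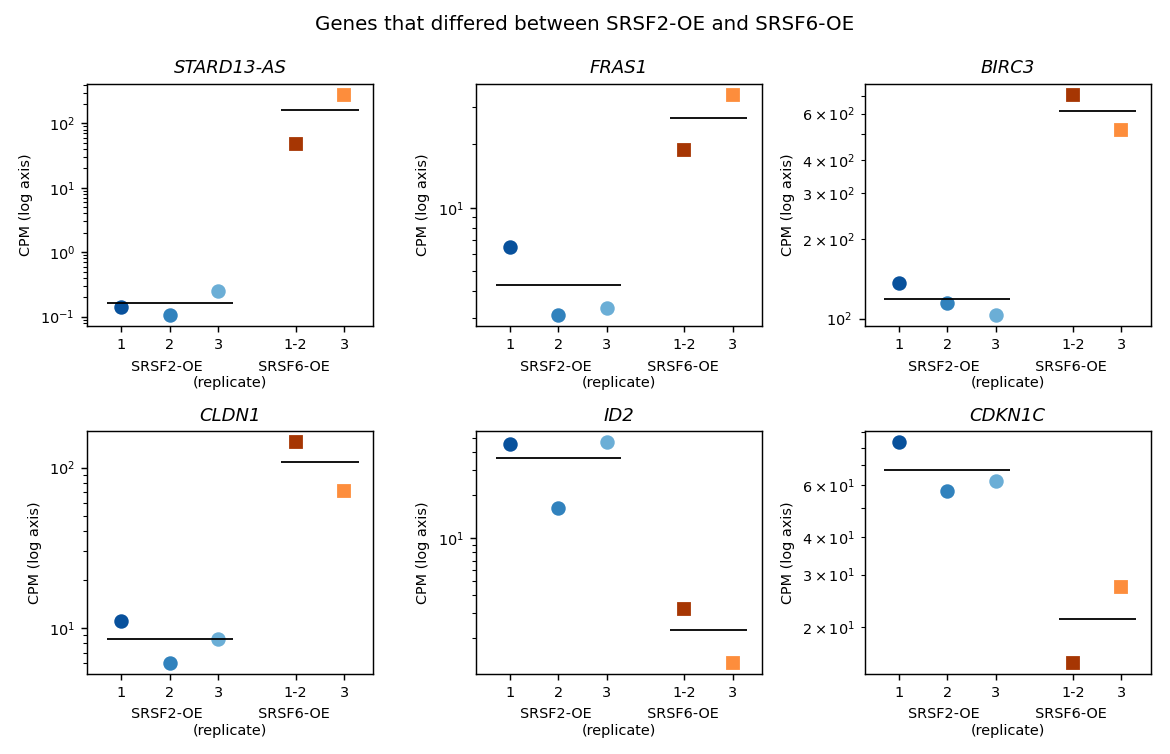
Level in CPM (vertical log axis, a separate scale per gene) of 4 genes lower and 2 higher in SRSF2-OE, in the 3 SRSF2-OE libraries (circles) and the 2 SRSF6-OE libraries (squares), with the mean of each group as a line. No gene overlaps between groups; STARD13-AS was 0.107 to 0.247 CPM in SRSF2-OE and 48.8 and 280.0 CPM in SRSF6-OE.

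Of 20 tested tight and adherens junction genes, 18 had a negative fold change (median -0.38, and -0.24 without SRSF6-OE replicate 3). Without overlap 7 (35%) were lower and 1 (5%) higher, against 15.3% of all genes in each direction. DESeq2 called 4 lower, CLDN1, CRB3, CTNND1 and LLGL2, and 0 higher, against 2.61% and 1.45% of all genes tested. CLDN1, a claudin that seals tight junctions, had 11.03, 6.06 and 8.55 CPM in SRSF2-OE, against 144 and 71.7 CPM in SRSF6-OE. The groups lay apart, with a log2 fold change of -3.61 ± 0.66 (DESeq2, adjusted p = 3.42e-05), and the SRSF4-OE, SRSF9-OE and TRA2B-OE libraries ran from 13.99 to 130.5 CPM, so that all SRSF2-OE libraries lay below them. CRB3, a polarity protein of the apical membrane, had 7.86, 8.22 and 6.63 CPM in SRSF2-OE, against 9.13 and 19.6 CPM in SRSF6-OE (DESeq2 log2 fold change -1.19 ± 0.23, adjusted p = 7.39e-05). CTNND1, p120 catenin, on chromosome 11, and LLGL2, a basolateral polarity protein, overlapped between groups because the summed SRSF6-OE library lay within the SRSF2-OE range. CDH1, E-cadherin, had 184, 190.2 and 185 CPM in SRSF2-OE and 148 and 334 CPM in SRSF6-OE and did not pass (DESeq2, adjusted p = 0.061). PKP1, a desmosome plakophilin, had 5.31, 3.44 and 5.62 CPM in SRSF2-OE, against 15.9 and 25.4 CPM in SRSF6-OE (DESeq2 log2 fold change -2.75 ± 0.62, adjusted p = 0.00153).

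Of 12 tested integrins, the receptors for matrix, 11 were negative (median -0.85, with -0.38 without SRSF6-OE replicate 3 and -1.49 without SRSF2-OE replicate 2). Without overlap 4 (33.3%) were lower and 0 higher, against 15.3% of all genes in each direction. DESeq2 called ITGA1, ITGB2 and ITGB8 lower and 0 higher, against 2.61% and 1.45% of all genes tested. ITGB8, on chromosome 7, had 74.4, 80.0 and 84.4 CPM in SRSF2-OE, against 136 and 201 CPM in SRSF6-OE (DESeq2 log2 fold change -1.04 ± 0.28, adjusted p = 0.0131). ITGB2, the beta chain of leukocyte integrins, had 1.09, 1.54 and 0.427 CPM in SRSF2-OE, against 10.7 and 15.0 CPM in SRSF6-OE (DESeq2 log2 fold change -3.61 ± 0.90, adjusted p = 0.00539). ITGA1, a collagen receptor chain, had 4.08, 5.68 and 3.42 CPM in SRSF2-OE, against 10.8 and 14.7 CPM in SRSF6-OE (DESeq2, adjusted p = 0.00427). All 3 were separated between groups. ITGB4, the beta chain of hemidesmosomes, was not and did not pass, with 1681, 6378 and 1899.7 CPM in SRSF2-OE and 2185 and 5328 CPM in SRSF6-OE.

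In the EGF receptor family and its ligands, 9 of 10 tested genes were negative (median -0.76). Without overlap 3 (30%) were lower, against 15.3% of all genes. EGFR, on chromosome 7, had 1018, 842 and 916 CPM in SRSF2-OE, against 1268 and 1670 CPM in SRSF6-OE (DESeq2 log2 fold change -0.94 ± 0.23, adjusted p = 0.00374). ERBB3, a partner receptor, had 18.8, 11.7 and 14.9 CPM in SRSF2-OE, against 21.5 and 30.8 CPM in SRSF6-OE (DESeq2 log2 fold change -0.95 ± 0.25, adjusted p = 0.0105). Neither receptor overlapped between groups, and the median fold change of chromosome 7 was -0.40. The ligand EREG, with 9.83, 47.2 and 14.5 CPM in SRSF2-OE against 50.7 and 103 CPM in SRSF6-OE, did not pass.

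Of 14 tested YAP and TAZ genes, which include the Hippo pathway's own effectors, 12 were negative (median -0.60, and -0.27 without SRSF6-OE replicate 3). Without overlap 4 (28.6%) were lower, against 15.3% of all genes, and 3 of these 4 lie on chromosomes 11 and 13. YAP1, the co-activator that the Hippo kinases restrain, on chromosome 11, had 183, 242 and 190 CPM in SRSF2-OE, against 305 and 444 CPM in SRSF6-OE (DESeq2 log2 fold change -0.91 ± 0.28, adjusted p = 0.0317). AMOTL1, also on chromosome 11, had 149, 187 and 157 CPM in SRSF2-OE and 173 and 292 CPM in SRSF6-OE, with overlap (DESeq2, adjusted p = 0.0201). With genes of the 4 chromosomes removed, the median of this list was -0.35, while those of the NF-κB, integrin and EGF lists were -0.72, -0.82 and -0.68.

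**Figure D5:**
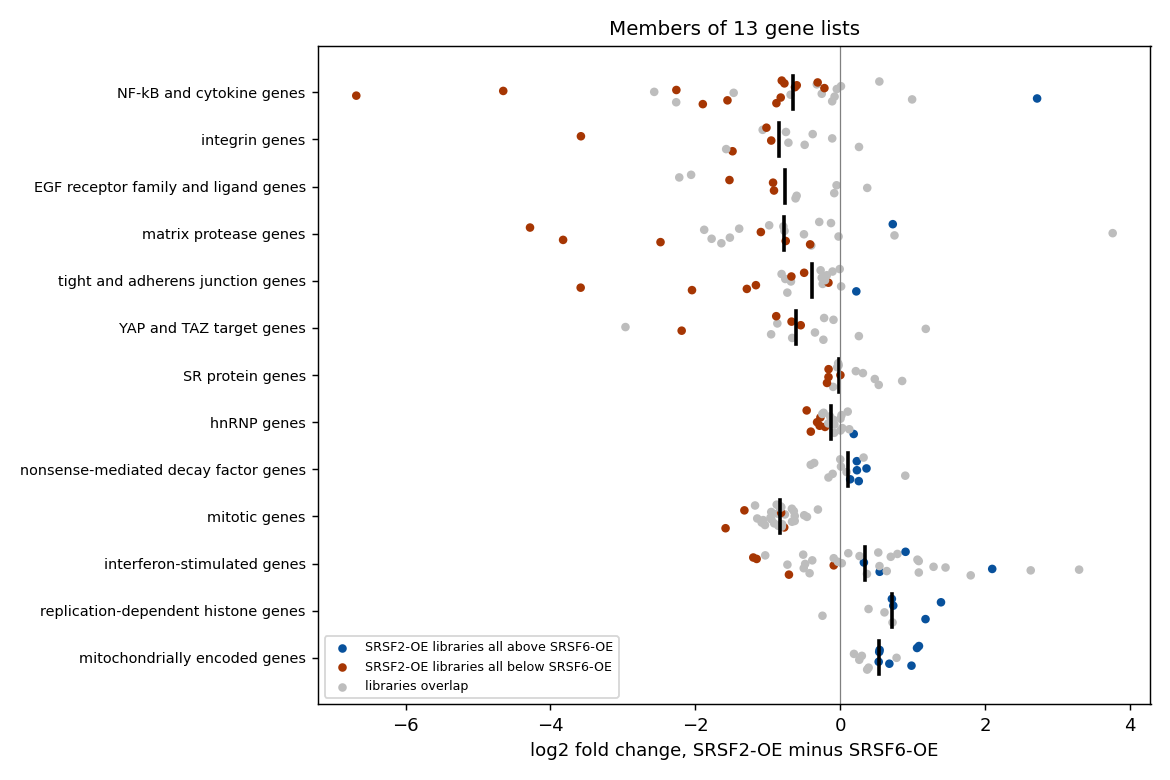
Log2 fold change of SRSF2-OE over SRSF6-OE (horizontal axis) for tested members of 13 gene lists, 1 point per gene, coloured by whether the libraries of the groups overlap, with the list median as a bar. The NF-κB and cytokine list has 13 members whose SRSF2-OE libraries all lie below both SRSF6-OE libraries and a median of -0.65, and SR protein genes centre near 0 with a median of -0.02.

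Matrix genes were divided. Among 22 tested matrix proteases and their inhibitors 19 were negative. Without overlap 6 (27.3%) were lower and 1 (4.55%) higher, against 15.3% of all genes in each direction. The median was -0.78, but 0.10 without SRSF6-OE replicate 3 and -1.27 without the summed SRSF6-OE library. DESeq2 called ADAM8 and ADAMTS1 lower and 0 higher, against 2.61% and 1.45% of all genes tested. ADAM8, a membrane protease, had 4.22, 15.7 and 3.37 CPM in SRSF2-OE, against 26.8 and 62.4 CPM in SRSF6-OE (DESeq2 log2 fold change -2.50 ± 0.75, adjusted p = 0.0271). VCAN, the proteoglycan versican, had 22.5, 46.6 and 6.75 CPM in SRSF2-OE, against 97.2 and 162 CPM in SRSF6-OE (DESeq2, adjusted p = 0.0384). TNC, tenascin C, had 10.5, 36.0 and 11.9 CPM in SRSF2-OE, against 31.8 and 255 CPM in SRSF6-OE, and overlapped (DESeq2, adjusted p = 0.00622). Its level was high in SRSF6-OE replicate 3 alone. The interstitial matrix list, which holds both, had 10 of 18 positive and a median of 0.30, but its median was negative in limma-voom (-0.54), without the label set term (-0.73), in the 5 libraries alone (-0.73) and without SRSF2-OE replicate 1 (-0.60) or 2 (-0.25), among others. The basement membrane list had 11 of 21 positive and a median of 0.03, which also changed sign between settings, from -0.15 to 0.17.

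Several of the lowest genes in SRSF2-OE belong to none of these lists. CALB1, the calcium buffer calbindin, on chromosome 8, had 0.543, 2.18 and 1.10 CPM in SRSF2-OE, against 112 and 1426 CPM in SRSF6-OE (DESeq2 log2 fold change -9.38 ± 1.38, adjusted p = 3.36e-08). CA8, a carbonic anhydrase relative without enzymatic activity, also on chromosome 8, had 0.221, 0.0427 and 0.157 CPM in SRSF2-OE, against 3.89 and 16.3 CPM in SRSF6-OE (DESeq2 log2 fold change -6.32 ± 0.89, adjusted p = 3.76e-09). Both were higher in the SRSF6-OE libraries than in these other overexpression groups: CALB1 reached 22.7 CPM and CA8 1.17 CPM in the SRSF4-OE, SRSF9-OE and TRA2B-OE libraries. ABCA1, the transporter that exports cholesterol to apolipoproteins, had 0.824, 0.192 and 0.382 CPM in SRSF2-OE, against 4.72 and 14.5 CPM in SRSF6-OE (DESeq2 log2 fold change -4.45 ± 0.65, adjusted p = 2.65e-08). WFDC2, a secreted protein of epithelia known as HE4, had 0.201, 0.107 and 0.045 CPM in SRSF2-OE, against 14.8 and 1.66 CPM in SRSF6-OE (DESeq2 log2 fold change -4.51 ± 0.80, adjusted p = 1.22e-05). Unlike most of the named genes, it was higher in the summed SRSF6-OE library than in replicate 3.

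FST, follistatin, which binds activin, had 0.181, 1.39 and 0.202 CPM in SRSF2-OE, against 6.52 and 16.1 CPM in SRSF6-OE (DESeq2, adjusted p = 0.0407). FAM167A, on chromosome 8, had 0.924, 3.26 and 0.562 CPM in SRSF2-OE, against 11.3 and 44.8 CPM in SRSF6-OE (DESeq2, adjusted p = 0.000758). SUCLA2-AS1, an antisense RNA on chromosome 13, had 0.583, 0.619 and 0.877 CPM in SRSF2-OE, against 2.96 and 27.1 CPM in SRSF6-OE (DESeq2, adjusted p = 4.96e-05). The gene it overlaps, SUCLA2, a subunit of the citric acid cycle enzyme succinyl-CoA ligase, was also lower, with 39.4, 51.5 and 55.3 CPM in SRSF2-OE against 119 and 239.8 CPM in SRSF6-OE (DESeq2 log2 fold change -1.89 ± 0.41, adjusted p = 0.000785), and was named after its values were seen. Reads of such overlapping pairs cannot be told apart here.

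All 14 genes with the largest rise in SRSF2-OE passed in DESeq2 alone, and their values varied among the SRSF2-OE libraries. ID2, an inhibitor of basic helix-loop-helix transcription factors and a target of BMP signalling, had 45.5, 16.4 and 46.9 CPM in SRSF2-OE, against 3.23 and 1.36 CPM in SRSF6-OE (DESeq2 log2 fold change 3.84 ± 0.82, adjusted p = 0.000692). SMAD6, the inhibitory SMAD that BMP signalling also induces, had 7.54, 4.59 and 10.98 CPM in SRSF2-OE, against 1.44 and 0.581 CPM in SRSF6-OE (DESeq2 log2 fold change 3.00 ± 0.63, adjusted p = 0.000521). For both genes every SRSF2-OE library exceeded both SRSF6-OE libraries, and the SRSF4-OE, SRSF9-OE and TRA2B-OE libraries ran from 3.06 to 51.4 CPM for ID2, overlapping both groups. FOXQ1, a forkhead transcription factor, had 28.9, 21.6 and 51.7 CPM in SRSF2-OE, against 6.89 and 2.07 CPM in SRSF6-OE (DESeq2 log2 fold change 2.92 ± 0.74, adjusted p = 0.00677). SESN3, a sestrin that restrains mTORC1, on chromosome 11, had 55.5, 22.4 and 94.7 CPM in SRSF2-OE, against 10.3 and 2.26 CPM in SRSF6-OE (DESeq2, adjusted p = 0.0183).

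Lipid and steroid enzymes and carriers were among them as well. CES4A, a carboxylesterase, had 38.5, 24.0 and 55.7 CPM in SRSF2-OE, against 12.9 and 2.002 CPM in SRSF6-OE (DESeq2 log2 fold change 2.92 ± 0.61, adjusted p = 0.000498). PLA2G4F, a cytosolic phospholipase A2, had 107, 9.15 and 158 CPM in SRSF2-OE, against 5.56 and 1.01 CPM in SRSF6-OE (DESeq2, adjusted p = 0.0457). SULT1E1, the oestrogen sulphotransferase, had 24.6, 10.4 and 84.4 CPM in SRSF2-OE, against 6.77 and 0.861 CPM in SRSF6-OE (DESeq2, adjusted p = 0.0487). In each of these SRSF2-OE replicate 2 was the lowest of its group. FABP4, a fatty acid carrier on chromosome 8, had 2.41, 1.39 and 15.0 CPM in SRSF2-OE, against 0.125 and 0.344 CPM in SRSF6-OE (DESeq2, adjusted p = 0.0267). Of the rest, KLHL3, GPR1, NLGN4X, IGFBP3 (on chromosome 7), ABI3BP and CFAP61 ran from 1.37 to 58.9 CPM in SRSF2-OE and from 0.431 to 6.50 CPM in SRSF6-OE, with DESeq2 adjusted p of 0.00554 to 0.0302.

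Cell cycle genes gave a mixed picture. CDKN1C, the CDK inhibitor p57, on chromosome 11, was higher in SRSF2-OE, with 83.3, 57.1 and 62.0 CPM against 15.2 and 27.3 CPM in SRSF6-OE (DESeq2 log2 fold change 1.39 ± 0.36, adjusted p = 0.00798). That gene ran against the median of its chromosome. CDK6, a G1 kinase on chromosome 7, had 85.5, 146 and 105 CPM in SRSF2-OE and 140 and 376 CPM in SRSF6-OE (DESeq2, adjusted p = 0.0252), and CCND2, its cyclin D2 partner, had 24.2, 11.8 and 4.18 CPM in SRSF2-OE and 23.9 and 89.6 CPM in SRSF6-OE (DESeq2, adjusted p = 0.0123). Both overlapped and were high in SRSF6-OE replicate 3. All 30 mitotic genes tested had a negative fold change (median -0.83, with -1.68 without SRSF6-OE replicate 3 and -0.20 without the summed SRSF6-OE library), yet 4 were lower without overlap (13.3%, near the 15.3% of all genes) and edgeR and DESeq2 called 0, with 0 at an unadjusted edgeR p under 0.05. Their summed level was 2179, 511 and 1359.6 CPM in SRSF2-OE, against 2159 and 1537 CPM in SRSF6-OE, so SRSF2-OE replicate 2 was low and replicate 1 as high as the summed SRSF6-OE library. The median of -1.68 was reached only through the label set term and is not the step between these levels. MCM7, a subunit of the replicative helicase on chromosome 7, had 118, 113 and 132 CPM in SRSF2-OE, against 210 and 162 CPM in SRSF6-OE (DESeq2 log2 fold change -0.62 ± 0.18, adjusted p = 0.0199). It was the 1 replication gene of 28 that passed, where DESeq2 called 2.61% of all genes tested lower.

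Of 8 replication-dependent histone genes tested, 7 were positive (median 0.72). The median was 1.09 without SRSF6-OE replicate 3, a value reached only through the label set term. Without overlap 4 (50%) were higher, against 15.3% of all genes. DESeq2 called HIST1H2AC and HIST3H2A higher, against 1.45% of all genes tested. HIST1H2AC had 42.9, 34.4 and 62.9 CPM in SRSF2-OE, against 27.4 and 21.4 CPM in SRSF6-OE (DESeq2 log2 fold change 1.15 ± 0.32, adjusted p = 0.0143). Histone copies are near-identical, so their counts are uncertain. All 13 mitochondrially encoded genes were positive (median 0.54, and 0.24 without SRSF2-OE replicate 1) and 7 (53.8%) were higher without overlap, where 15.3% of all genes were, but DESeq2 and edgeR called 0, with 2 at an unadjusted edgeR p under 0.05. Their share of all counts was 16.4%, 8.31% and 11% in SRSF2-OE, against 8.35% and 6.45% in SRSF6-OE (mean 11.9 ± 4.10% and 7.40 ± 1.35%, SD; exact permutation test, two-sided p = 0.40, where 3 libraries against 2 cannot go below 0.10). SRSF2-OE replicate 1 was the highest and replicate 2 was level with the summed SRSF6-OE library.

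Interferon-stimulated genes went both ways: of 34 tested, 21 were positive and 13 negative (median 0.35, and 0.02 without SRSF6-OE replicate 3). Without overlap 4 (11.8%) were lower and 4 (11.8%) higher, below the 15.3% of all genes in each direction. IFI44L and IFI44, interferon-induced proteins, had DESeq2 adjusted p of 0.000342 and 0.000918, yet overlapped. IFI44L had 18.4, 8.68 and 22.9 CPM in SRSF2-OE and 15.8 and 0.474 CPM in SRSF6-OE, so SRSF6-OE replicate 3 alone was low. OAS3, a sensor of double-stranded RNA, was lower in SRSF2-OE without overlap, with 86.6, 78.1 and 53.5 CPM against 122 and 159 CPM in SRSF6-OE (DESeq2 log2 fold change -1.23 ± 0.31, adjusted p = 0.00747).

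Of 13 tested SR and SR-like genes 6 were positive and 7 negative, with a median of -0.02. The median was 0.15 without SRSF6-OE replicate 3, a value reached only through the label set term. DESeq2 and edgeR called 0 of these genes, with 1 higher and 0 lower at an unadjusted edgeR p under 0.05. Yet 4 of them, SRSF3, SRSF4, SRSF7 and SRSF11, lay lower without overlap (30.8%, against 15.3% of all genes) by little: SRSF11 had 179, 171 and 226 CPM in SRSF2-OE, against 299 and 227 CPM in SRSF6-OE. Among 21 hnRNP genes, whose products often oppose SR proteins at splice sites, 14 were negative (median -0.12), 6 (28.6%) were lower and 1 higher without overlap, and 0 passed by either tool, with 1 lower at an unadjusted edgeR p under 0.05. HNRNPA2B1, on chromosome 7, had 555, 482 and 648 CPM in SRSF2-OE, against 893 and 811 CPM in SRSF6-OE, and did not pass (DESeq2, adjusted p = 0.29). Of 16 core snRNP protein genes, which build the spliceosome, 10 were negative (median -0.06), 4 (25%) were lower and 1 higher without overlap, and 0 passed by either tool or at an unadjusted edgeR p under 0.05. Of 14 nonsense-mediated decay factors 10 were positive (median 0.11), 5 (35.7%) were higher without overlap and 0 passed by either tool or at an unadjusted edgeR p under 0.05. Splicing itself was not analysed here.

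The other list members named by rule were scattered. CDKN2D, a CDK4 and CDK6 inhibitor, ADAMTS1, a secreted protease, and IGFBP7, an IGF-binding protein, were lower in SRSF2-OE without overlap (DESeq2, adjusted p = 0.0301, 0.0118 and 0.00877). IFI6, an interferon-induced protein, and S100A1, a calcium-binding protein, were higher without overlap (DESeq2, adjusted p = 0.00906 and 0.0316). KRT80, a keratin, CNFN, cornifelin, and SC5D, a sterol desaturase on chromosome 11, passed lower but overlapped (DESeq2, adjusted p = 0.0183, 0.000549 and 0.0385). In each of the last 3 genes the difference was set by SRSF6-OE replicate 3, at 21.7 CPM for KRT80, 39.2 CPM for CNFN and 171 CPM for SC5D, while the summed SRSF6-OE library had 2.42, 1.16 and 61.3 CPM.

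Of 13 tested genes on a list of regulators of epithelial-to-mesenchymal transition, DESeq2 called 2 higher in SRSF2-OE and 0 lower, against 1.45% and 2.61% of all genes tested. Without overlap 3 (23.1%) were higher and 0 lower, against 15.3% of all genes in each direction. ZEB2, a repressor of E-cadherin, had 37.4, 33.6 and 43.7 CPM in SRSF2-OE, against 15.4 and 9.90 CPM in SRSF6-OE (DESeq2 log2 fold change 1.80 ± 0.50, adjusted p = 0.0149). TWIST1, another such regulator, on chromosome 7, had 15.6, 17.2 and 22.2 CPM in SRSF2-OE, against 14.2 and 8.44 CPM in SRSF6-OE (DESeq2 log2 fold change 0.95 ± 0.26, adjusted p = 0.0131). Without the label set term (DESeq2, adjusted p = 0.16) and in the 5 libraries alone (DESeq2, adjusted p = 0.329) TWIST1 did not pass, while ZEB2 did. Neither overlapped, and of the 13 tested genes of that list 9 were positive, with a median of 0.25 that was -0.052 without SRSF2-OE replicate 2 and 0.043 without replicate 1. EPCAM, an epithelial adhesion molecule of the marker list, had 1.25, 1.07 and 0.54 CPM in SRSF2-OE, against 2.61 and 11.4 CPM in SRSF6-OE, and passed (DESeq2, adjusted p = 0.0016), named after its values were seen. It was the 1 of 7 tested epithelial markers that DESeq2 called, where 2.61% of all genes tested were called lower. Of these 7, 6 had a negative fold change, and 1 (14.3%) was lower without overlap, near the 15.3% of all genes.

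Some abundant genes varied widely within a group. KRT10, a keratin of differentiating epidermis, had 2106, 101 and 7203 CPM in SRSF2-OE and 217 and 27.2 CPM in SRSF6-OE. SRSF2-OE replicate 2 lay within the SRSF6-OE range while replicates 1 and 3 lay above it, so the groups overlapped, and the gene did not pass (DESeq2, adjusted p = 0.243). The list of cornification and kallikrein genes had a median of -2.39, which was -0.34 without SRSF6-OE replicate 3. Without overlap 3 of its 27 tested members (11.1%) were lower, below the 15.3% of all genes.

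Markers of the labelled cell type were present in both groups. KRT5 and KRT14, keratins of basal epithelium, had 7844 to 18176 CPM and 5176 to 7422 CPM in SRSF2-OE, against 8896 and 11858 CPM and 5261 and 5636 CPM in SRSF6-OE. The 11 basal markers summed to 33089, 36831 and 37567 CPM in SRSF2-OE, against 28703 and 57325 CPM in SRSF6-OE, so the groups overlapped. The luminal markers, of which 4 of 9 were tested, summed to 26.6, 19.3 and 27.4 CPM in SRSF2-OE, against 15.2 and 10.3 CPM in SRSF6-OE. They lay higher in SRSF2-OE without overlap, and all 4 had a positive fold change. By edgeR or DESeq2 0 passed, with 0 at an unadjusted edgeR p under 0.05. Of the 9 luminal markers 8 were in the count table, and PGR, CSN2, CSN3, LALBA and WAP were not tested. The fibroblast markers, of which 6 of 10 were tested, summed to 315, 350.4 and 447 CPM in SRSF2-OE and 441 and 328 CPM in SRSF6-OE, with overlap. The tested genes, 2 of 7 immune and 2 of 6 endothelial markers, summed to at most 5.25 and 12.9 CPM in any of the 5 libraries. Of the 6 endothelial markers 5 were in the count table, and PTPRC, CD3E, PECAM1, VWF and CDH5 were not tested. The part of luminal markers in the results was not tested.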

How the data were processed

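RNA of 18 samples was sequenced as stranded, paired reads of 101 bases. The authors deposited counts of reads per gene; per the submitters' processing notes, Trimmomatic 0.36, STAR 2.5.1b, Subread featureCounts and GRCh37 were used, and whether counting used strand is not given. Lanes of 1 library were summed, giving 14 libraries. Names and chromosomes came from GENCODE 29 by gene ID (55951 of 60252 genes named).

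The test was edgeR 4.0.16 quasi-likelihood (R 4.3.3) on all 14 libraries, with group and label set as terms, TMM scaling, a minimum count of 10 and an adjusted p of 0.05 (7 residual degrees of freedom). DESeq2 1.42.0 and limma 3.58.1 were alternatives, and the steps were tested on simulated data. Named genes were the 14 highest and 14 lowest passing genes with a mean of at least 3 CPM and no overlap, filled from DESeq2, and up to 4 passing members per list. The members and lists were chosen with earlier results of these data known. Whether replicate numbers pair the libraries could not be told, and the main model did not pair them. The floor of 3 counts covers counting error only.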

Additional observations from a re-analysis of the deposited data

How the results depend on the processing

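The number of genes edgeR called depended on the settings. Higher calls, 0 as reported, came to 8 without a filter on low counts, 309 in DESeq2, 4 without the label set term, 58 among numeric-labelled libraries, 257 with 18 samples as separate replicates, 12 when TRA2B-OE replicate 3 and SRSF2-OE replicate 1 were left out, and 0 to 224 without each library in turn. Lower calls, 5 as reported, came to 50 without the filter, 556 in DESeq2, 14 in limma-voom, 18 without the label set term, 0 in the 5 libraries alone, 2 without Control libraries, 200 among numeric-labelled libraries, 637 with 18 samples, 49 without the pair that stood apart, and 0 to 529 without each library in turn. The highest counts in turn, 224 and 529, came without the summed SRSF6-OE library. With the replicate block there were 0 lower calls. Deviations from the group mean in same-numbered libraries correlated at 0.34, -0.47 and -0.31 for replicates 1, 2 and 3. The deviations of the 2 SRSF6-OE libraries mirror each other, so these values cannot settle whether replicate numbers pair the libraries.

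The following DESeq2 settings, and the removal of the 4 chromosomes, were chosen after seeing the data. DESeq2's 309 higher calls came to 500 without the pair that stood apart, 144 with the replicate block, 827 with 18 samples, 161 with chromosomes 7, 8, 11 and 13 removed, and 1 to 1373 without each library. Its 556 lower calls came to 317 with the replicate block, 1307 with 18 samples, 204 with those chromosomes removed, and 8 to 1503 without each library. The SRSF6 fold change changed sign, to -0.049 without the label set term and -0.062 in the 5 libraries alone. The 63 named genes gave 1115 fold changes under 18 alternatives, and 0 changed direction. As the named genes were chosen from these same data for passing a test, a stable sign was largely set by that choice. It is no separate support for the genes. In edgeR, where STARD13-AS and FRAS1 alone of them passed, these no longer passed in 11 comparisons. In DESeq2, where all 63 passed, 40, 61 and 31 passed without SRSF2-OE replicate 1, 2 and 3, and few did without SRSF6-OE replicate 3. Fits without an SRSF6-OE library leave 1 in that group. Without replicate 3 the contrast also rests on the label set term. The low counts of calls there do not measure what that replicate contributed. Of 737 list medians under the alternatives, 74 had another sign and 62 moved by more than the spread between replicates. The cause was not tested, and 3 libraries against 2 limit every comparison.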
